A study of Mus musculus with 14 samples.

Results

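The WNT ligands, their receptors and their antagonists were described in bulk RNA-seq of mouse plexiform neurofibromas (PNs), benign tumors of peripheral nerve, and of control dorsal root ganglia (DRGs) with nerve. Members were taken by a rule on gene symbols, which reads no values but was set with earlier results of these data known, and 50 of the 24062 genes in the count table matched. They are 19 *Wnt* ligands, 10 *Fzd* (Frizzled) receptors, 4 *Rspo* genes (R-spondins), 3 *Lgr* genes (R-spondin receptors), 10 secreted antagonists (*Sfrp1*, *Sfrp2*, *Sfrp4*, *Sfrp5*, *Frzb*, 4 *Dkk* genes, and *Wif1*), *Axin1* and *Axin2*, and the transcription factor genes *Lef1* and *Tcf7*. The control group was 3 DRG libraries of Nf1fl/fl mice (DRG3, DRG4, DRG5). The PN group was 11 neurofibroma libraries of DhhCre;Nf1fl/fl mice, of which 5 were from slow-growing tumors (1079, 1198A, 1202, 1203, 1206) and 6 from fast-growing tumors (1053, 1071, 1179, 1191, 1214, 1216). By MRI, slow tumors grew by less than 5 mm3 over 2 months and fast tumors by more than 35 mm3. All mice carried the floxed *Nf1* alleles on a mixed background of C57BL/6, I-129 and FVBN, and none had received a drug. *Dhh-Cre* deletes *Nf1* in the Schwann cell lineage, so the other cells of the tumor keep the gene. The mice were 9 months old by the study's methods and 7 months by a figure legend. The labels do not say that each library came from a separate animal, so the p-values measure the spread between these libraries.

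WNT proteins are secreted lipid-modified ligands that bind Frizzled receptors with the co-receptors LRP5 and LRP6. In the canonical branch this halts the AXIN-based complex that degrades beta-catenin, and beta-catenin then enters the nucleus and acts with TCF/LEF factors. R-spondins acting through LGR receptors keep Frizzled receptors on the cell surface, SFRP proteins and WIF1 bind WNTs, and DKK1 binds the LRP co-receptors. In peripheral nerve, WNT signaling is known for roles in Schwann cell lineage progression and myelination.

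Between 9596773 and 17594164 reads were counted on genes per library, and 3 counts corresponded to 0.167 to 0.313 CPM (counts scaled to a common library size by TMM), a floor that covers counting error only. *Nf1* itself stood at 129 to 227 CPM in controls and 225 to 294 CPM in PNs, so the libraries labelled PN do not show less of it, and gene-level counts cannot separate the floxed exons. Nonmyelinating Schwann cell genes were higher in PNs (7 of 8 listed markers, summed CPM 483 to 1244 in controls and 2124 to 5069 in PNs). The control libraries also held skeletal muscle and fat transcripts. The 15 muscle markers summed to 11647 to 41172 CPM in controls, 83.2 to 13345 in slow PNs and 407 to 8185 in fast PNs, and the 13 fat markers to 5340 to 6798, 27.8 to 3729 and 27.3 to 325 CPM. Of these, 7 muscle and 4 fat markers were called lower in PNs, with *Acta1*, *Mb*, *Ucp1* and *Cidea* among them. Against control, 13 muscle and 13 fat markers were called lower in fast PNs, and 0 muscle and 1 fat marker in slow PNs. In bulk tissue, fewer cells of a type and less RNA per cell cannot be told apart.

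Levels of the members were first compared with each other per transcript length, as CPM per kb of the longest annotated transcript. All 50 members had counts in at least 1 library, and 34 had counts in all 14. *Wnt2b* had the highest level among ligands in all 14 libraries, with a PN level of 8.51 ± 3.54 CPM per kb (SD, n = 11) and a control level of 6.01 ± 3.57 (SD, n = 3). It was followed by *Wnt6*, *Wnt5a*, *Wnt9a* and *Wnt4*, whose PN means lay between 1.30 and 3.47 CPM per kb, and *Wnt6* and *Wnt5a* did not differ beyond their spread. *Wnt1*, *Wnt3a*, *Wnt8a* and *Dkk4* never exceeded 3 counts in a library. *Lgr4* was the highest of the R-spondin and LGR group in all 14 libraries, at 11.2 ± 4.26 CPM per kb in controls and 17.7 ± 2.17 in PNs. Among antagonists, *Sfrp5* was highest in 8 libraries and *Dkk3* in 6. Summed over a role, antagonists reached 98.9 ± 58.0 CPM per kb in controls and 128.8 ± 27.8 in PNs, against 19.1 ± 6.59 and 21.3 ± 4.49 for ligands, a description for which no test was made.

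**Figure D1:**
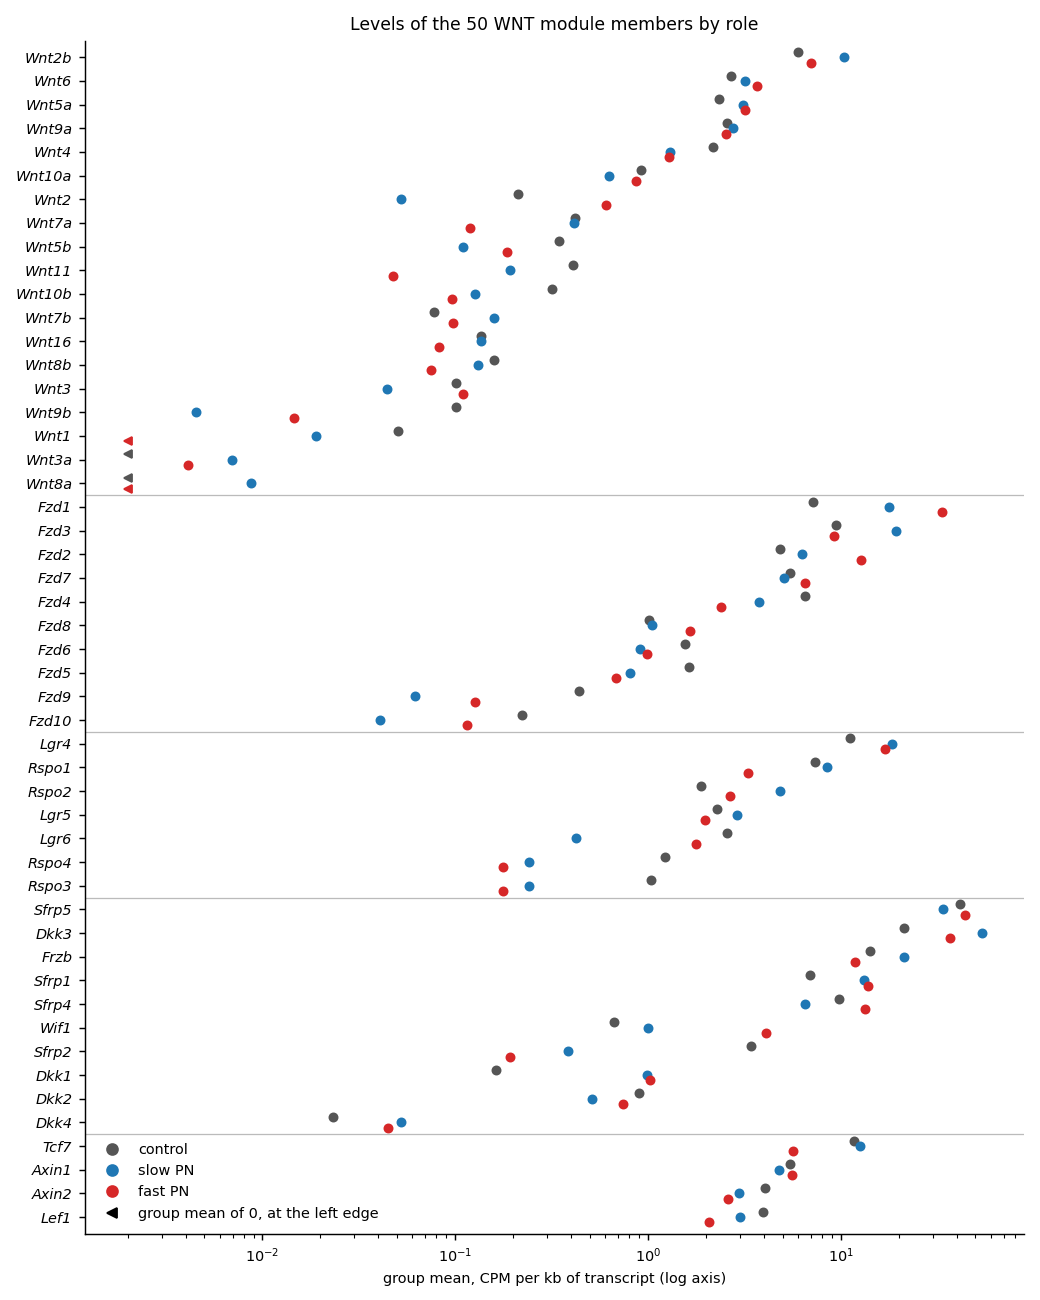
Mean level of each of the 50 members in control, slow PN and fast PN libraries, in CPM per kb of transcript on a log axis, grouped by role (ligands, Frizzled receptors, R-spondins with LGR receptors, antagonists, AXIN and TCF/LEF factors). *Sfrp5* and *Dkk3* stand at the right, while *Wnt3a* and *Wnt8a* have a control mean of 0 and are drawn at the left edge.

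The question of the main comparison was which members differed between PNs and control tissue. After the filter on low counts 38 of the 50 members were tested with edgeR's quasi-likelihood test, and 12 were called at a Benjamini-Hochberg adjusted p under 0.05. *Dkk1*, *Dkk3*, *Sfrp1*, *Fzd1* and *Lgr4* were higher in PNs, and *Sfrp2*, *Rspo3*, *Rspo4*, *Fzd4*, *Fzd5*, *Wnt4* and *Axin2* were lower. The called share of the tested members was 31.6%, beside 25.9% of all 16283 genes tested, of which 12.7% were called higher and 13.2% lower, so the share for the members lay near the background. Their median log2 fold change was -0.03, beside 0.10 for all genes tested. In 5 of the 38 tested members the PN and control libraries did not overlap (*Dkk1*, *Fzd4*, *Fzd5*, *Rspo3* and *Sfrp2*), and 17.6% of all tested genes were separated in this way. The untested *Wnt9b* was at 3, 3 and 8 counts in controls and at most 3 in any PN, so its groups tie in counts at the floor and are apart only after scaling, at 0.257 CPM in the lowest control and 0.227 in the highest PN. The 12 members that were not tested (9 ligands, *Fzd9*, *Fzd10* and *Dkk4*) reached at most 19 counts, or 1.98 CPM, in any library.

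Divided by growth, 3 of 36 tested members were called in slow PNs against control (*Dkk1* and *Dkk3* higher, *Sfrp2* lower), a share of 8.33% beside 10.9% of all genes (3.94% higher, 6.92% lower). Some other methods called more members and more genes. DESeq2 called 8 (22.2%, beside 22.5% of all genes), limma-voom 6 (16.7%, beside 11.7%) and 1 fit over all 14 libraries 8 (21.1%, beside 20% of all genes). In fast PNs against control 14 of 38 were called, 36.8% beside 31.3% of all genes (14.7% higher, 16.6% lower). Those higher were *Dkk1*, *Sfrp1*, *Wif1*, *Fzd1* and *Fzd8*, and those lower were *Wnt4*, *Wnt11*, *Fzd4*, *Fzd5*, *Rspo1*, *Rspo3*, *Rspo4*, *Sfrp2* and *Axin2*. Both comparisons use the same 3 controls, and *Dkk1* and *Sfrp2* were called in both. A call in fast PNs and not in slow PNs does not show a difference between them, which is tested directly further on. In all, 16 members were called in at least 1 comparison. No share of all genes called in at least 1 comparison is given, so no difference from the background is read from that count.

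The number of calls fell without DRG4 or DRG5, among the members and over all genes. Without DRG4, 3 of 43 tested members (6.98%) were called between PNs and control, beside 14.7% of all genes. Without DRG5 it was 4 of 39 (10.3%), beside 12.4%. *Dkk1*, *Fzd5* and *Sfrp2* kept their call with any of the 14 libraries left out. In fast PNs against control, 7 of 42 members were called without DRG4 (16.7%, beside 21.9% of all genes). It was 8 of 38 without DRG5 (21.1%, beside 20.4%). Without each of 1053, 1179 and 1216 it was 9 (23.7% to 24.3%, beside 27.1% to 28.3%). *Dkk1*, *Fzd1*, *Fzd4*, *Fzd5*, *Sfrp1* and *Sfrp2* kept their call there with each of the 9 libraries left out. In slow PNs no member was called by edgeR without DRG4, 1079 or 1206 (4.17% to 7.38% of all genes). Without DRG5 it was 2 of 37 there (5.41%, beside 3.52%), and without 1202 it was 1 of 36 (2.78%, beside 6.50%). Some members gained a call instead, such as *Tcf7* in fast PNs without 1191 and *Lgr4* in slow and in fast PNs without DRG3. With muscle and fat scores as covariates no member was called in any comparison, and 496 genes of the whole table in PNs against control and 0 in the other comparisons. Without the 3 PNs of the highest fat score, 10 of 38 members (26.3%) were called between PNs and control, beside 26.1% of all genes. The muscle and fat sums moved with the groups, and their part in the members' differences was not tested further.

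Calls below are those of edgeR as just described, and other settings added or removed some. Against control in PNs, limma-voom added *Wnt10b* and *Wnt11*, the fit over all 14 libraries (the joint fit) also added *Wnt11*, and without the filter on low counts *Wnt9b* was called. In slow PNs *Fzd5* and *Lgr6* were called by DESeq2, limma-voom and the fit over all 14 libraries. *Rspo3* was called there by DESeq2 and limma-voom, *Rspo4* by DESeq2, *Lgr4* by DESeq2 and the joint fit, and *Wnt4* and *Sfrp1* by the joint fit. *Dkk1* lost its slow call without the filter, and *Dkk3* and *Sfrp2* with per-library trends along length and base composition removed (the length and GC trend, an alternative chosen after seeing the data). In fast PNs *Dkk3* and *Wnt7a* were called by DESeq2 and limma-voom, *Wnt10b* by limma-voom and *Lgr4* by the joint fit. With the length and GC trend removed 10 members were called in fast PNs (27.8% of all genes), since *Fzd8*, *Rspo1*, *Rspo4* and *Wnt4* lost their call. Without the filter 11 were called there (23.1% of all genes), since *Fzd8*, *Wif1* and *Wnt4* lost it. The joint fit lost *Fzd8* and *Rspo1*, and limma-voom *Wif1* and *Wnt4*.

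**Figure D2:**
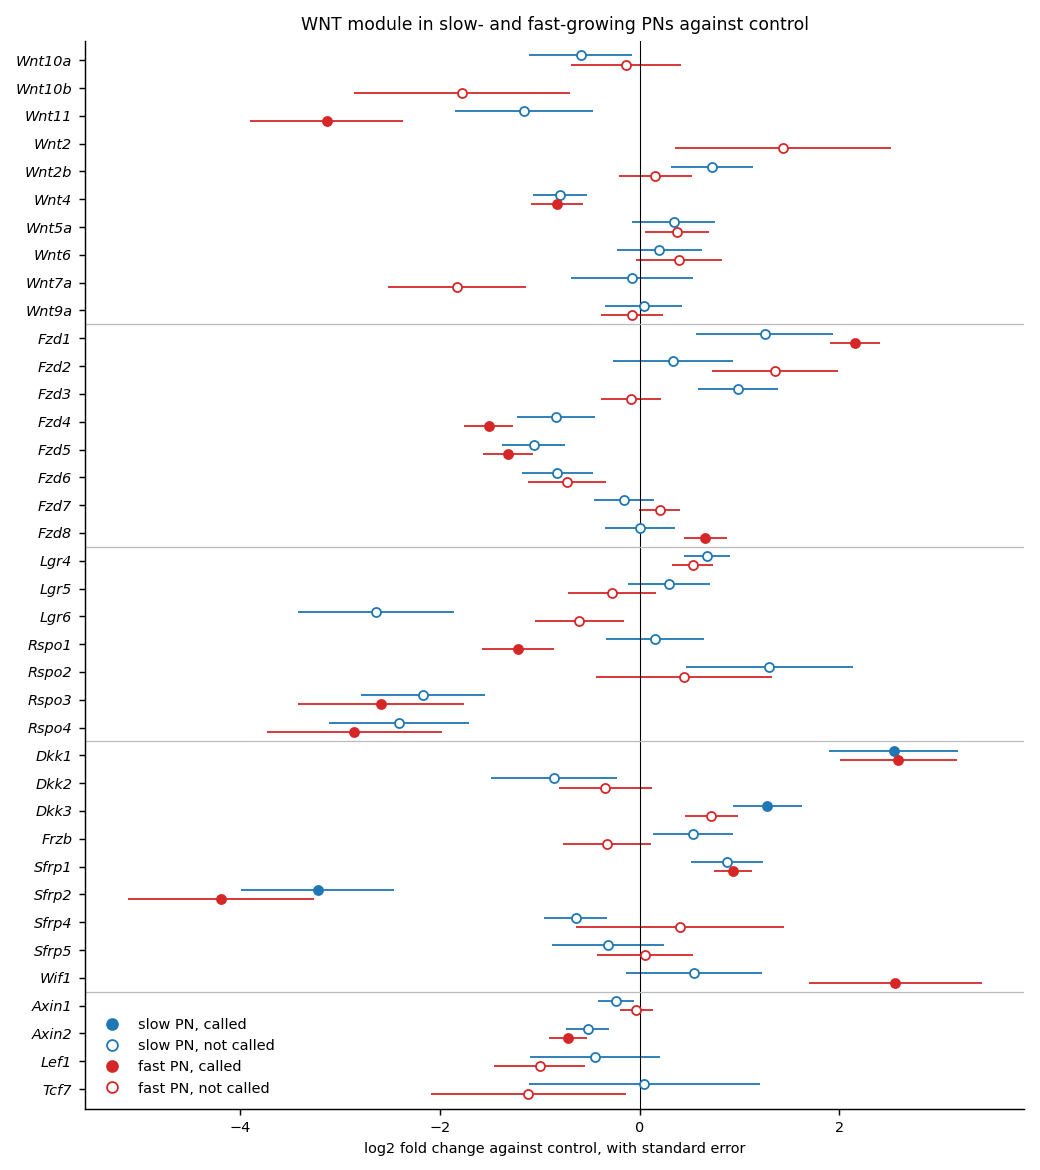
Log2 fold change of each tested member in slow PNs and in fast PNs against control, with its standard error as a bar; filled points were called at an adjusted p under 0.05 and open points were not, and a member with 1 point was tested in 1 comparison. *Dkk1* and *Sfrp2* are filled in both groups, and *Dkk3* is filled in slow PNs and open in fast PNs.

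Sequence upstream of the members was read as a description. The TCF/LEF core words searched for were CTTTGAA and CTTTGAT, and besides these CTTTGTA as well as CTTTGTT. The search covered both strands of RefSeq promoter windows on GRCm38.p6, from 250 bases before to 50 bases after a start site. Windows were found for 34 of the 50 members, and 6 of these genes (17.6%) held a word in at least 1 window, beside 18.9% of all 27025 genes with a window. Counted by window, it was 14.6% of 41 member windows and 16.9% of 32851 windows. The 6 genes are *Dkk1*, *Fzd7*, *Lef1*, *Wnt3*, *Wnt5b* and *Wnt11*. Among members called in some comparison, *Dkk1* held CTTTGAA 117 bases and CTTTGTT 98 bases before its RefSeq start, and *Wnt11* held ATCAAAG, the reverse complement of CTTTGAT, 51 bases before its start. The GENCODE start of *Dkk1* lies 169 bases further upstream than the RefSeq start, so both words fall inside the GENCODE gene. *Axin2*, a called member and a common readout of the canonical branch, held none in its window, which says only that these letters are absent there. The sequences of these 3 genes are shown, as the called members that held a word and *Axin2* beside them, with the words in capitals, 5′ to 3′ on the strand of the gene: 30 bases of *Dkk1* (chr19:30549586-30549615, minus strand), and the 250 bases upstream of *Wnt11* (chr7:98834862-98835111, plus strand) and of *Axin2* (chr11:108920099-108920348, plus strand).
Dkk1: agCTTTGAAatcccatcccggCTTTGTTgt
Wnt11: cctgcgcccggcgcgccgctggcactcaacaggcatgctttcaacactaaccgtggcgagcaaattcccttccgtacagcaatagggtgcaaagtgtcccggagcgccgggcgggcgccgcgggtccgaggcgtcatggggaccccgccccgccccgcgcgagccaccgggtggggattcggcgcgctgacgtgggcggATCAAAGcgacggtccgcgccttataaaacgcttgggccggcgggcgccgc
Axin2: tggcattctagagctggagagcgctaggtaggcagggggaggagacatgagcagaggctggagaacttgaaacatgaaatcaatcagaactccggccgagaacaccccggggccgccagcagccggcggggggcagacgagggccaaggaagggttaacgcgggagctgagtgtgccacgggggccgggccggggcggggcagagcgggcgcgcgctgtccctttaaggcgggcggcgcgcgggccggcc

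Among the ligands, *Wnt4* was the 1 of 10 tested that edgeR called between PNs and control, beside 25.9% of all genes. *Wnt4*, which is known for roles in the kidney and the female reproductive tract, lies on chromosome 4 of mm10 from 137277489 to 137299726. Its level was 5.83, 9.44 and 12.1 CPM in the controls, 4.40, 5.86, 5.92, 5.86 and 5.30 CPM in slow PNs, and 5.13, 4.71, 5.41, 4.76, 7.50 and 5.04 CPM in fast PNs. The spread was thus among the controls, with DRG3 inside the PN range and 7 of 11 PNs below every control. The log2 fold change was -0.76 (SE 0.20, adjusted p = 0.0134 from edgeR) for PNs against control, and the adjusted p was 0.0625 without DRG4 and 0.168 without DRG5. It was -0.83 (SE 0.26, adjusted p = 0.0376 from edgeR) for fast PNs, where 7 of the 9 libraries could not be left out without losing the call (adjusted p of up to 0.237), and -0.80 (SE 0.27, adjusted p = 0.0969) for slow PNs.

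*Wnt11*, a ligand of the noncanonical branch, was called by edgeR in fast PNs and not in PNs together or slow PNs. Its counts were low. Controls were at 0.943, 1.74 and 1.56 CPM, slow PNs at 0.152, 0.601, 0.817, 1.56 and 0.193 CPM, and fast PNs at 0.112, 0.205, 0, 0.302, 0.371 and 0 CPM, so that all 6 fast PNs lay below every control and slow PN 1203 lay among the controls. On the log2 scale the fold change in fast PNs was -3.13 (SE 0.77, adjusted p = 0.0124 from edgeR), and the call was lost without DRG4 or DRG5, at an adjusted p of at most 0.0550. Between PNs and control it was called by limma-voom, by the fit over all 14 libraries and by edgeR without slow 1203. Reads of the overlapping antisense gene *Gm8398* cannot be told apart, since the strand setting of the counting is not stated.

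*Wnt2b*, the ligand of the highest level, did not pass the test. It was at 33.6, 13.7 and 12.5 CPM in controls, and had a lowest, median and highest PN value of 14.8, 27.7 and 57.1 CPM. The fitted log2 fold change was 0.48 (SE 0.38, adjusted p = 0.379 from edgeR), with the control DRG3 higher than the other two, and it was 1.09 (adjusted p = 0.0747) without DRG3. The other 8 tested ligands had log2 fold changes from -1.89 to 0.74 in PNs, with adjusted p of 0.103 to 0.975. *Wnt7a*, known in nervous system vasculature and synapse formation, was below every control in all 6 fast PNs, at 0.0672 to 0.781 CPM against 1.15 to 1.63 CPM, with a log2 fold change of -1.83 (SE 0.69, adjusted p = 0.0707) that did not pass in edgeR, while DESeq2 and limma-voom called it.

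Of 8 tested Frizzled receptors 3 were called between PNs and control (37.5%, beside 25.9% of all genes), with *Fzd1* higher and *Fzd4* and *Fzd5* lower. *Fzd1* (chromosome 5, from 4753839 to 4758035 on the minus strand) was at 41.8, 26.9 and 21.8 CPM in controls. In slow PNs it was at 47.5, 207.9, 29.3, 35.1 and 52.7 CPM and in fast PNs at 128.4, 116.6, 120.3, 159.9, 129.7 and 186.6 CPM. All 6 fast PNs were above every control and above 4 of the 5 slow PNs, the exception being 1198A, which had the highest level of all libraries. Its log2 fold change was 1.85 (SE 0.60, adjusted p = 0.035 from edgeR) for PNs, 2.16 (SE 0.25, adjusted p = 2.4e-04) for fast PNs and 1.25 (SE 0.68, adjusted p = 0.247) for slow PNs. For PNs against control the call was lost without DRG4, DRG5, 1053, 1071 or 1214, at adjusted p from 0.0515 to 0.158, and under limma-voom at 0.0551. Without 1198A the slow PNs averaged 41.1 ± 10.8 CPM (SD, n = 4), and their log2 fold change was 0.39 (SE 0.30, adjusted p = 0.376 from edgeR). With muscle and fat covariates the direction turned in PNs (-0.22).

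The makeup of the Frizzled group differed between libraries. Of the summed Frizzled level per kb, *Fzd1* made up 16.1% to 20.1% in controls, 41.9% to 52.9% in fast PNs, and 16.7% to 58.0% in slow PNs, where 1198A gave the highest share and the others stayed at or below 26.8%. *Fzd3*, known for axon guidance and planar polarity in neurons, was instead the highest Frizzled receptor in slow PNs 1079, 1202, 1203 and 1206, at 39.6% to 46.3% of the sum, and in control DRG3, at 31.0%. *Fzd4* was the highest in DRG4 and DRG5, at 21.4% and 21.5%, and was 2.95% to 4.97% in fast PNs. These shares are descriptions and were not tested. Pan-fibroblast markers stood beside them at a summed 1898 to 3681 CPM in controls, 1253 to 5566 in slow PNs, where 1198A was the highest, and 5489 to 10354 in fast PNs. All 6 listed markers were called higher in fast PNs against control, where 14.7% of all genes were. Between fast and slow PNs 0 of the 6 were called, as in slow PNs or all PNs against control. The part of fibroblast content in the level of *Fzd1* was not tested.

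*Fzd4*, the receptor of norrin in blood vessels, lies on chromosome 7 from 89404355 to 89413134. Its level was 38.8, 45.9 and 46.7 CPM in controls, 17.7, 37.7, 25.9, 10.2 and 35.6 CPM in slow PNs, and 16.1, 11.2, 12.1, 24.6, 14.03 and 18.7 CPM in fast PNs. All 11 PNs were below every control, slow PN 1198A by the narrowest margin. The log2 fold change was -1.12 (SE 0.34, adjusted p = 0.0267 from edgeR) in PNs, -1.51 (SE 0.25, adjusted p = 0.00161) in fast PNs and -0.84 (SE 0.39, adjusted p = 0.187) in slow PNs. Between PNs and control the adjusted p was 0.0964 without DRG4 and 0.111 without DRG5. Of 8 listed endothelial markers 3 were called lower in PNs (37.5%, beside 25.9% of all genes), namely *Kdr*, *Egfl7* and *Esam*. The 8 markers summed to 398 to 533 CPM in controls, 110 to 510 in slow PNs and 150 to 366 in fast PNs. The sum of slow PN 1206, at 510 CPM, lay among the controls. The part of endothelial cells in the level of *Fzd4* was not tested.

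*Fzd5* (chromosome 1, from 64730558 to 64737751) was lower by a similar factor with less spread. Controls were at 12.3, 9.35 and 12.1 CPM, slow PNs at 2.73, 4.96, 6.74, 6.68 and 6.94 CPM, and fast PNs at 5.13, 3.003, 3.58, 5.67, 4.97 and 5.92 CPM. No PN reached the lowest control. On the log2 scale the fold change was -1.15 (SE 0.26, adjusted p = 0.00491 from edgeR) in PNs, a 2.22-fold lower level, and the adjusted p was at most 0.0347 with any 1 library left out. It was -1.32 (SE 0.25, adjusted p = 0.00366) in fast PNs and -1.06 (SE 0.31, adjusted p = 0.0656) in slow PNs. The antisense gene *Gm38058* overlaps its exon.

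*Fzd8* was called higher by edgeR in fast PNs and in neither other comparison with control, at 10.4, 8.87, 9.95, 9.45, 9.13 and 11.8 CPM against 8.32, 4.86 and 4.90 CPM in controls, with all 6 above every control. Slow PNs, at 7.14, 4.43, 5.51, 4.58 and 9.64 CPM, spread over both ranges. The fitted log2 fold change was 0.66 (SE 0.22, adjusted p = 0.0435 from edgeR). This call was lost without DRG4, DRG5, 1053, 1179, 1191, 1214 or 1216, at adjusted p of up to 0.164, and at 0.0527 with the length and GC trend removed. The 5 Frizzled receptors tested and not called in PNs had log2 fold changes from -0.72 to 1.002, with adjusted p from 0.136 to 0.816.

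Among R-spondins and their receptors 3 of 7 were called between PNs and control (42.9%, beside 25.9% of all genes), where the ligands *Rspo3* and *Rspo4* were lower in PNs while the receptor *Lgr4* was higher. *Lgr4* (chromosome 2, from 109917647 to 110014257) was at 81.7, 43.4 and 45.3 CPM in controls. Slow PNs were at 103.8, 103.9, 86.3, 82.9 and 92.6 CPM and fast PNs at 86.8, 93.0, 72.5, 71.7, 92.8 and 98.8 CPM, so 9 of 11 PNs were above every control, and DRG3 was the control that overlapped. Its log2 fold change was 0.64 (SE 0.18, adjusted p = 0.0205 from edgeR), a 1.56-fold higher level, and it lost its call without DRG4 (adjusted p = 0.139) or DRG5 (0.143). With the length and GC trend removed its adjusted p was 0.0877, and without the 3 PNs of the highest fat score (1198A, 1202 and 1206) 0.0503. Neither slow (adjusted p = 0.0993) nor fast PNs (0.0758) passed alone in edgeR.

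*Rspo3* (chromosome 10, from 29452416 to 29535867), known for its role in blood vessels and organ development, was at 1.97, 2.84 and 4.79 CPM in controls. It was at 0.683, 0.150, 1.02, 1.47 and 0.386 CPM in slow PNs and at 0.502, 0.205, 0, 0.378, 0.371 and 1.82 CPM in fast PNs, with no overlap between PNs and controls. The log2 fold change was -2.34 (SE 0.69, adjusted p = 0.022 from edgeR) in PNs, with adjusted p = 0.0640 without DRG4 and 0.151 without DRG5. It was -2.59 (SE 0.83, adjusted p = 0.0401) in fast PNs, lost without DRG4, DRG5, 1053, 1071, 1191 or 1214 at up to 0.163, and -2.17 (SE 0.62, adjusted p = 0.0603) in slow PNs. Without 1216 the value in fast PNs was -3.42. The exons overlap the antisense gene *Gm48159*.

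*Rspo4*, best known for nail development, was at 4.12, 4.03 and 0.6254 CPM in controls, 0.456, 0.301, 0.817, 1.10 and 0.193 CPM in slow PNs, and 0.112, 0.956, 0.219, 0, 0.965 and 0.269 CPM in fast PNs. DRG5 lay within the PN range and 7 of 11 PNs were below it. On the log2 scale the fold change was -2.59 (SE 0.70, adjusted p = 0.0143 from edgeR), and the call was lost without DRG3 (0.0618) or DRG4 (0.0856). In fast PNs it was -2.86 (SE 0.87, adjusted p = 0.0331), lost without DRG3, DRG4, 1053, 1179 or 1216 at up to 0.119, and in slow PNs -2.41 (SE 0.70, adjusted p = 0.0622). *Rspo1* was called by edgeR in fast PNs and in neither other comparison with control. It was at 20.5, 8.89 and 11.3 CPM in controls, 23.4, 5.26, 13.99, 12.1 and 23.3 CPM in slow PNs, and 3.74, 9.01, 3.29, 8.24, 6.90 and 5.38 CPM in fast PNs, so 5 of 6 fast PNs were below every control. The fitted log2 fold change was -1.22 (SE 0.36, adjusted p = 0.0297 from edgeR), and it was lost without DRG3, DRG5, 1053, 1179 or 1216, at up to 0.139, and at 0.256 with the length and GC trend removed (log2 fold change -0.71). *Rspo2*, *Lgr5* and *Lgr6* did not pass in PNs.

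Of the antagonists tested 4 of 9 were called between PNs and control (44.4%, beside 25.9% of all genes, 12.7% higher and 13.2% lower), a small count from which no difference to other genes is read. *Dkk1* (higher) and *Sfrp2* (lower) had the largest called differences of the module between PNs and control. *Dkk1* (chromosome 19, from 30545863 to 30549665 on the minus strand), whose product blocks LRP5 and LRP6, was a low transcript with 3, 1 and 8 counts in the controls and 20 to 50 counts in each PN. This was 0.257, 0.0916 and 0.834 CPM in controls, 1.52, 2.56, 2.96, 1.83 and 3.08 CPM in slow PNs, and 2.51, 2.18, 1.97, 3.78, 2.37 and 2.15 CPM in fast PNs. Every PN was above every control. Its log2 fold change was 2.62 (SE 0.50, adjusted p = 0.00176 from edgeR), a 6.13-fold higher level, and the adjusted p was at most 0.00995 with any 1 library left out. The size rested on DRG5, the highest control, without which it was 3.71 in PNs, 3.63 in slow PNs and 3.74 in fast PNs. It was alike in slow PNs (2.54, SE 0.65, adjusted p = 0.0407) and fast PNs (2.59, SE 0.59, adjusted p = 0.00888), though the slow call was lost without any of DRG3, DRG4, 1079, 1198A, 1202 and 1206, at up to 0.134. In PNs the adjusted p was 0.0519 with muscle and fat covariates, at a log2 fold change of 2.89.

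*Sfrp2* (chromosome 3, from 83766321 to 83774316), a WNT-binding protein known as a marker of epineurial fibroblasts, was at 9.69, 6.32 and 4.69 CPM in controls. It was at 0.607, 0.0752, 1.74, 0.183 and 1.25 CPM in slow PNs and at 0.446, 0.0683, 0.0731, 1.59, 0.148 and 0 CPM in fast PNs. No PN reached the lowest control, and the log2 fold change of -3.66 (SE 0.81, adjusted p = 0.00462 from edgeR) is a 12.6-fold lower level. It kept its call with any 1 library left out (adjusted p of at most 0.0202). It was -4.19 (SE 0.94, adjusted p = 0.00841) in fast PNs, and -5.46 there without 1191. In slow PNs it was -3.23 (SE 0.76, adjusted p = 0.033), a call lost without DRG3, DRG4, DRG5, 1079 or 1206, at up to 0.100. The other 5 epineurial fibroblast markers summed to 130 to 221 CPM in controls and 76.8 to 254 CPM in PNs, and 1 of the 5, *Pi16*, was called lower. With muscle and fat covariates its log2 fold change was -1.28 in PNs and turned to 2.59 in fast PNs, neither past the threshold. The antisense gene *Gm26771* overlaps its exons.

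*Dkk3* (chromosome 7, from 112116017 to 112159057), a divergent DKK family member, was abundant. It was at 111.7, 52.5 and 51.5 CPM in controls, 225.7, 107.8, 187.3, 215.4 and 169.1 CPM in slow PNs, and 148.9, 144.8, 104.2, 93.8, 145.1 and 105.2 CPM in fast PNs. DRG3 overlapped the lower PNs, and 7 of 11 PNs exceeded every control. The log2 fold change was 1.04 (SE 0.32, adjusted p = 0.0275 from edgeR) in PNs, 1.28 (SE 0.34, adjusted p = 0.0494) in slow PNs and 0.72 (SE 0.27, adjusted p = 0.0665) in fast PNs. The PN call was lost without DRG4 (0.146), DRG5 (0.158) or the 3 PNs of the highest fat score (0.0508). The slow call was lost without DRG4, DRG5, 1079, 1202, 1203 or 1206, at up to 0.204, and with the length and GC trend removed (0.0581).

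*Sfrp1* (chromosome 8, from 23411502 to 23449632) was at 41.4, 28.4 and 20.9 CPM in controls, 39.6, 73.8, 50.8, 91.0 and 35.4 CPM in slow PNs, and 64.7, 64.8, 51.0, 58.7, 55.8 and 66.8 CPM in fast PNs. The 6 fast PNs were all above the controls and close together, while 2 slow PNs lay below DRG3. On the log2 scale the fold change was 0.95 (SE 0.27, adjusted p = 0.0181 from edgeR) in PNs, where it was lost without DRG4 (0.0840) or DRG5 (0.126). It was 0.93 (SE 0.19, adjusted p = 0.00539) in fast PNs and 0.88 (SE 0.36, adjusted p = 0.147) in slow PNs.

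*Wif1*, a WNT-binding protein known as a marker of endoneurial fibroblasts, was called by edgeR in fast PNs and in neither other comparison with control. Controls were at 1.37, 1.01 and 2.19 CPM, slow PNs at 1.37, 4.06, 2.96, 0.366 and 2.699 CPM, and fast PNs at 5.86, 2.73, 7.46, 29.7, 3.41 and 7.06 CPM, so all 6 fast PNs were above every control and 1191 was far above the rest. The fitted log2 fold change was 2.56 (SE 0.86, adjusted p = 0.0495 from edgeR), and the call was lost without DRG3, DRG4, DRG5, 1053, 1179 or 1216, at up to 0.158, and under limma-voom or without the filter on low counts. Without 1191 it was 1.73 (adjusted p = 0.0219). The other 5 endoneurial fibroblast markers summed to 132 to 229 CPM in controls, 278 to 650 in slow PNs and 484 to 658 in fast PNs, and *Abca9* and *Etv1* of them were called higher in PNs. Their part in the level of *Wif1* was not tested.

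*Sfrp5*, the antagonist of the highest level per kb by the mean over all 14 libraries (40.1 CPM per kb, beside 39.6 for *Dkk3*), did not pass the test. In PNs alone *Dkk3* was the higher, at 44.6 ± 13.6 CPM per kb against 39.7 ± 17.2 for *Sfrp5*. It was at 153.2, 39.8 and 43.0 CPM in controls, with a lowest, median and highest PN value of 21.1, 69.8 and 150.6 CPM. Its log2 fold change was -0.08 (SE 0.46, adjusted p = 0.92 from edgeR), and it turned to 0.85 without DRG3 and 0.02 without 1203. *Dkk2*, *Frzb* and *Sfrp4* did not pass either, at log2 fold changes from -0.51 to 0.17 and adjusted p from 0.494 to 0.973. For *Sfrp4* the value of 0.05 (SE 0.82) depended on fast PN 1191, at 220.7 CPM. The PN median was 26.1 CPM, and controls were at 19.8 to 56.8 CPM.

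**Figure D3:**
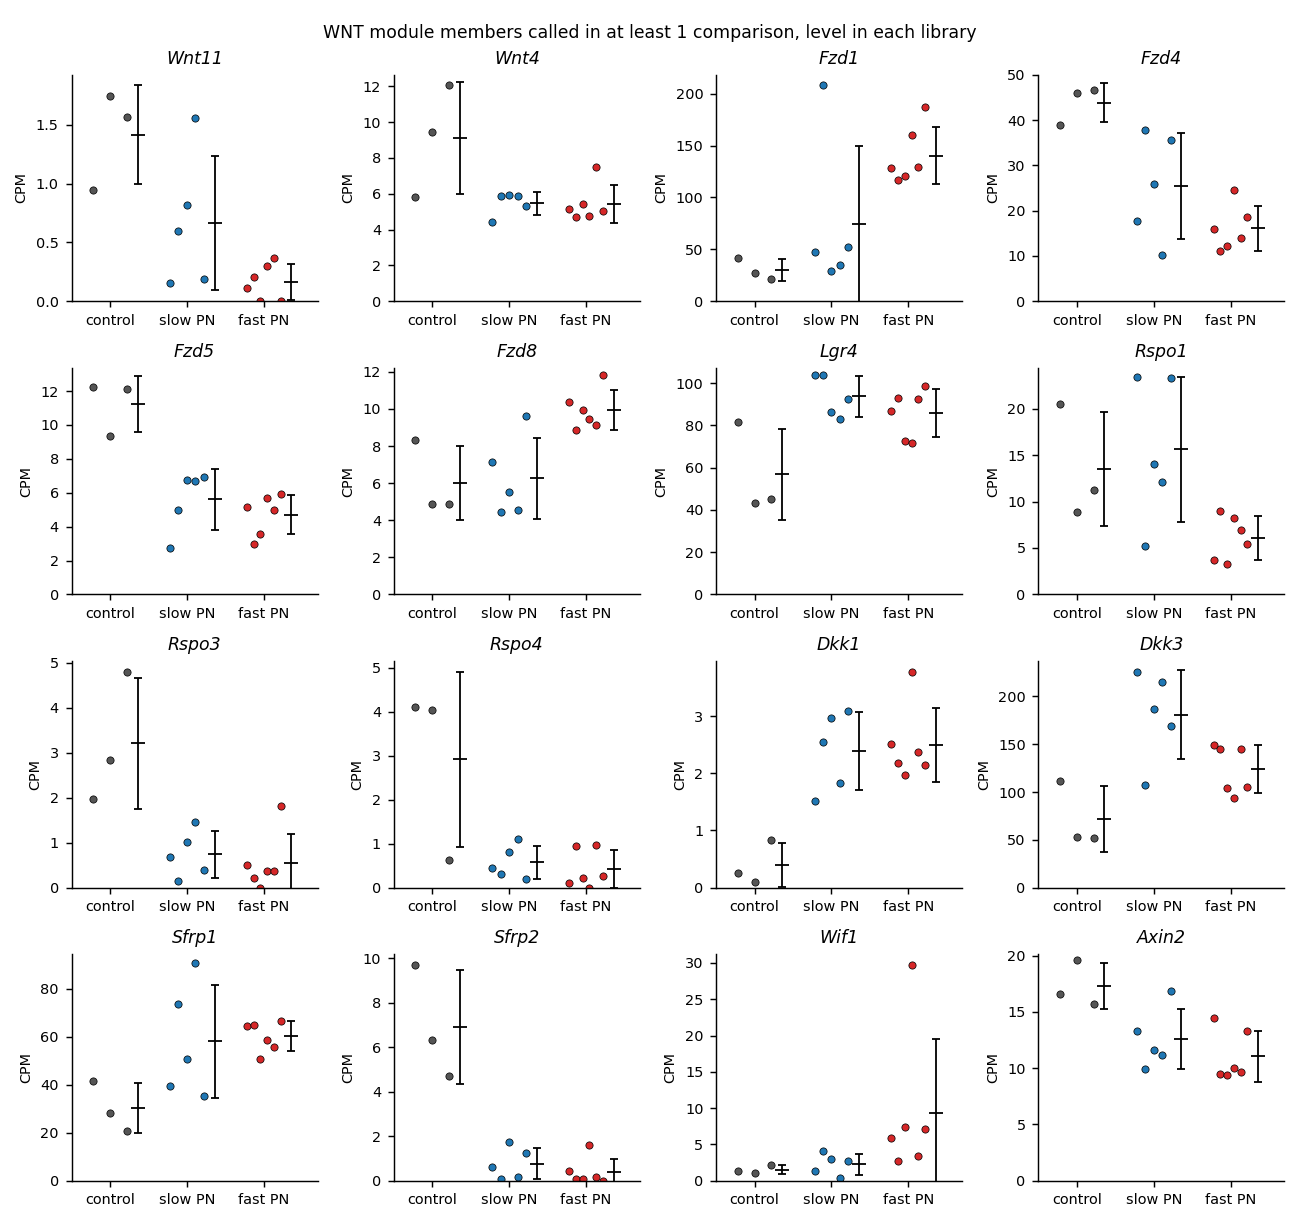
Level in CPM (linear axes from 0) of the 16 members called in at least 1 comparison, with 1 point per library in control (n = 3), slow PN (n = 5) and fast PN (n = 6), and the mean ± SD as a bar that is cut at 0. Every PN lies above the controls for *Dkk1* and below them for *Fzd4*, *Fzd5*, *Rspo3* and *Sfrp2*, and a single slow PN reaches 207.9 CPM for *Fzd1*.

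In the AXIN and TCF/LEF group, *Axin2*, a feedback inhibitor that is itself a beta-catenin target, was lower in PNs. *Axin2* (chromosome 11, from 108920349 to 108950783) was at 16.6, 19.6 and 15.7 CPM in controls, 13.3, 9.92, 11.6, 11.2 and 16.9 CPM in slow PNs, and 14.5, 9.49, 9.36, 9.98, 9.65 and 13.3 CPM in fast PNs. Slow PN 1206 lay among the controls and the other 10 PNs below them. The log2 fold change was -0.58 (SE 0.18, adjusted p = 0.0296 from edgeR), a 1.49-fold lower level, and the call was lost without DRG3, DRG4 or DRG5, at 0.0572 to 0.163, and with the length and GC trend removed, at 0.0547. In fast PNs it was -0.72 (SE 0.19, adjusted p = 0.0185), lost without DRG4 (0.0882), and in slow PNs -0.52 (SE 0.22, adjusted p = 0.152). The antisense gene *Gm11670* overlaps its exons. *Axin1* was at -0.07 (SE 0.16, adjusted p = 0.765) in PNs.

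*Tcf7* and *Lef1*, which also serve in T cell development, varied between libraries far more than between groups. *Tcf7* (chromosome 11, from 52252371 to 52283014) was at 6.17, 57.5 and 23.5 CPM in controls, 117.9, 7.14, 16.5, 3.94 and 10.1 CPM in slow PNs, and 5.80, 4.78, 8.48, 55.6, 3.41 and 5.92 CPM in fast PNs. The high libraries were DRG4, DRG5, slow 1079 and fast 1191. On the log2 scale the fold change of *Tcf7* was -0.43 (SE 1.04, adjusted p = 0.796 from edgeR) and that of *Lef1* -0.67 (SE 0.47, adjusted p = 0.309), and that of *Tcf7* turned to 0.54 without DRG4. *Lef1* was at 27.5 CPM in DRG4 and 21.7 in 1079, but at 7.41 in 1191.

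The same 4 libraries had the highest sums of 12 T lymphocyte markers, at 462, 243, 430 and 245 CPM in that order, against 12.2 to 57.5 CPM in the other 10. Of 5 thymocyte markers, *Rag1*, which cuts antigen receptor genes in immature lymphocytes, was at 189 CPM in 1079 and 102 in 1191, but at 1.65 and 3.54 in DRG4 and DRG5. *Dntt*, which adds bases at those joins, was at 71.0 and 29.9 CPM in the first pair and at 1.65 and 2.40 in the second. *Rag2*, the partner of *Rag1*, was at 33.1 and 16.9 CPM in the first pair and at 0.550 and 0.6254 in the second. The other 2 markers did not follow this order. *Ptcra* was at 4.10 and 3.70 CPM in 1079 and 1191, near the 3.83 CPM of slow PN 1198A, and *Cd1d1* was at 2.96 and 2.34 CPM there but at 17.6 and 17.2 in DRG4 and DRG5. *Cd3e* was above 20 CPM in all 4. These lists were written after the values of *Tcf7* and *Lef1* had been seen. The part of such cells in the levels of *Tcf7* and *Lef1* was not tested.

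**Figure D4:**
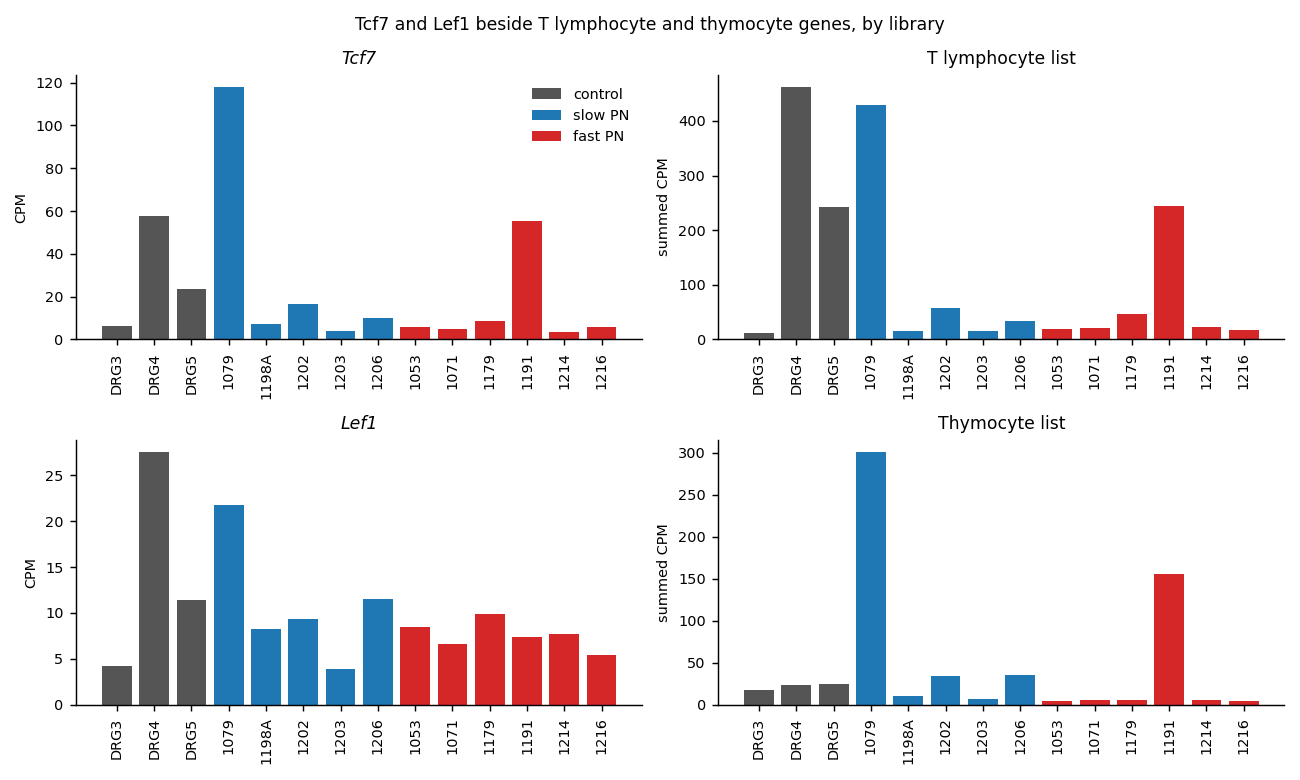
Bars give the CPM of *Tcf7* and *Lef1* (left) and the summed CPM of 12 T lymphocyte and 5 thymocyte markers (right) in each of the 14 libraries. Slow PN 1079 stands out in all 4 panels, fast PN 1191 in all but *Lef1*, and DRG4 in all but the thymocyte list.

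The rest of the pathway was described with lists that overlap the members in no gene. The shares called in each list are small counts to be read beside the 25.9% of all genes called between PNs and control. Among other secreted or membrane inhibitors 2 of 11 tested were called in PNs (18.2%). *Kremen2*, a DKK receptor, was at 0.885 ± 0.518 CPM in controls and 8.71 ± 1.498 in PNs (SD, n = 3 and 11), with a log2 fold change of 3.27 (SE 0.34, adjusted p = 1.6e-05 from edgeR). It was also called in slow PNs (3.22, SE 0.44, adjusted p = 0.00402) and in fast PNs (3.23, SE 0.43, adjusted p = 5.4e-04), as was its ligand gene *Dkk1*. *Tmem88*, a membrane protein that binds Dishevelled, was lower (-1.45, SE 0.35, adjusted p = 0.00766). Of 9 tested co-receptors and alternative receptors 2 were called (22.2%), with *Ror2*, a receptor for WNT5A, and *Reck*, a partner of WNT7 signaling, higher at log2 fold changes of 1.51 (SE 0.48) and 1.27 (SE 0.35). *Lrp5* and *Lrp6* did not pass, at 0.08 and 0.33. Of the 3 tested secretion genes, *Porcn*, which attaches the lipid to WNTs, was at 0.56 (SE 0.27, adjusted p = 0.143) and did not pass, and *Wls*, the WNT carrier, was at 26.9 ± 1.03 CPM in controls and 27.2 ± 9.35 in PNs.

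Inside the cell, 3 of 17 tested destruction complex and relay genes were called (17.6%), all higher. They were *Nkd2*, a Dishevelled-binding inhibitor (5.72 ± 0.556 CPM in controls, 65.8 ± 45.6 in PNs), *Csnk1e*, a casein kinase, and *Ctnnb1*, which encodes beta-catenin (369 ± 61.4 and 513 ± 43.3 CPM). Their log2 fold changes were 3.51 (SE 0.97), 0.65 (SE 0.14) and 0.46 (SE 0.13). Of 13 nuclear partners 3 were called (23.1%), *Tle2* and *Bcl9* higher and *Aes* lower (-0.81, SE 0.21). In fast PNs against control it was 7 of the 13 (53.8%, beside 31.3% of all genes), with *Tle2*, *Tle3* and *Pygo2* higher and *Aes*, *Tcf7l2*, *Bcl9l* and *Pygo1* lower. In the other lists the share called in fast PNs lay between 17.6% and 36.4%. In slow PNs the inhibitors and the planar polarity list had 1 gene called each and the other lists none by edgeR, beside 10.9% of all genes. Of 10 planar polarity genes 3 were called (30%), with *Daam2*, *Celsr2* and *Prickle2* higher, *Daam2* most (2.13, SE 0.41, adjusted p = 0.00179 from edgeR). Of 8 tested beta-catenin target genes outside the members 2 were called (25.0%), a share near that of all genes. *Ccnd1*, which encodes cyclin D1, was higher (2.60, SE 0.88, adjusted p = 0.0417) and *Tnfrsf19* lower (-1.47, SE 0.37, adjusted p = 0.0101). The list medians lay between -0.06 for the targets and 0.56 for the secretion genes, beside 0.10 for all genes.

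The last comparison asked whether the module differed between fast and slow PNs. Of 32 members tested 0 were called by edgeR, beside 0.938% of the 15465 genes tested. At an unadjusted p under 0.05 there were 8, beside 20.2% of all genes. DESeq2 called 4 of the 29 members it gave an adjusted p (13.8%, beside 10.2% of all genes), namely *Fzd3*, *Lgr6*, *Rspo1* and *Wif1*. Of the 32 members limma-voom called 0 (0.22% of all genes), and edgeR without robust estimation called *Fzd3* (1.27%). Without slow 1198A edgeR called 4 of 33 (12.1%, beside 7.54% of all genes), namely *Fzd1* (higher in fast PNs) and *Fzd3*, *Rspo1* and *Dkk3* (lower). For *Fzd1* the log2 fold change between fast and slow PNs was 0.91 (SE 0.47, adjusted p = 0.306) with 1198A and 1.77 (SE 0.21, adjusted p = 0.00288) without it. The adjusted p of the other 3 was 0.0153, 0.0188 and 0.0328 without it. Over all libraries the lowest adjusted p was that of *Fzd3*, whose levels were 307.2, 173.5, 210.5, 184.0 and 354.3 CPM in slow PNs and 113.9, 146.6, 124.6, 102.0, 140.8 and 78.0 CPM in fast PNs. All 6 fast PNs were below every slow PN, and the controls were at 199.8, 83.0 and 77.4 CPM. Its log2 fold change was -1.07 (SE 0.23, adjusted p = 0.051 from edgeR), so *Fzd3* missed the threshold there. It was called by DESeq2, by edgeR without robust estimation, and without any of 1198A, 1203 and 1071. The summed sensory neuron markers, beside this, were 3383 to 14971 CPM in slow PNs and 576 (in 1191) to 8994 CPM in fast PNs. Of these 16 markers 0 were called between fast and slow PNs. Their part in the level of *Fzd3* was not tested.

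*Wnt2*, too low to be tested between fast and slow PNs, was the other member whose groups did not overlap. No share of all genes without overlap is given for this comparison, so no difference is read from it. *Wnt2* was at 0.171 to 0.733 CPM in controls. In slow PNs it was at 0.0916 to 0.152 CPM (1 or 2 counts) and in fast PNs at 0.205 to 4.16 CPM (3 to 55 counts). Its slow values and part of its fast values lie at or below the floor.

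The other members under an unadjusted p of 0.05 were *Rspo1*, *Fzd8*, *Lgr6*, *Wif1*, *Dkk3*, *Wnt7a* and *Frzb*. *Rspo1* was at 6.09 ± 2.35 CPM in fast and 15.6 ± 7.78 in slow PNs (SD, n = 6 and 5), a log2 fold change of -1.36 (SE 0.39, adjusted p = 0.0863 from edgeR). *Lgr6*, a receptor for R-spondins known in skin, was at 11.8 ± 6.89 CPM in fast and 2.84 ± 2.87 in slow PNs, and at 17.2 ± 1.21 in controls. Slow PNs 1079, 1202 and 1203 had 0.683, 0.817 and 0.733 CPM of it, all other libraries at least 5.66. Its log2 fold change was 2.05 (SE 0.69, adjusted p = 0.127) between fast and slow PNs and -2.64 (SE 0.78, adjusted p = 0.0655) between slow PNs and control in edgeR, where no slow PN reached a control. DESeq2 called both differences, and limma-voom and the fit over all 14 libraries that with control. For *Dkk1* the difference between fast and slow PNs was 0.06 (SE 0.27) and for *Sfrp1* 0.05 (SE 0.23), both small beside their differences from control.

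**Figure D5:**
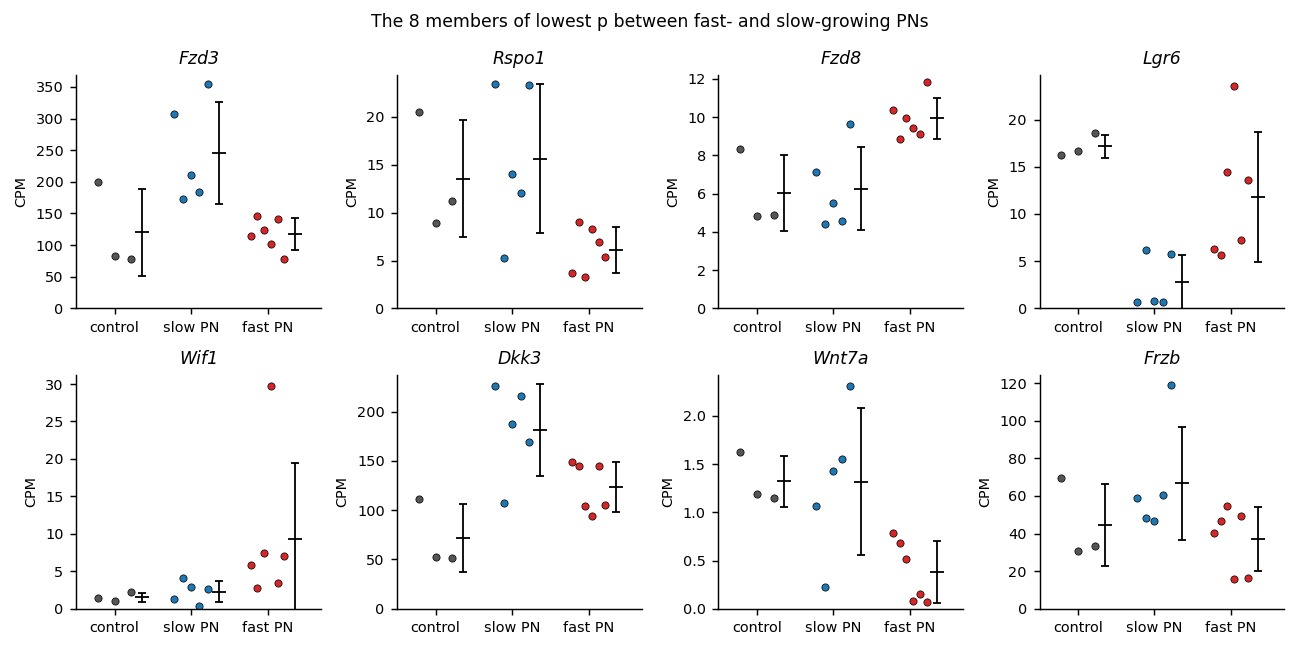
Level in CPM (linear axes from 0) of the 8 members whose p was lowest when fast PNs were compared with slow PNs, with 1 point per library and the mean ± SD as a bar that is cut at 0. All fast PNs lie below all slow PNs for *Fzd3*, and the groups overlap for the other 7 shown; 0 of the 8 passed the adjusted threshold.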

How the data were processed

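Bulk RNA-seq libraries of 3 control DRGs and 11 PNs were analysed, and the single-cell libraries of the study were not used here. RNA libraries were amplified by the authors with an Ovation kit (NuGEN), and their processing notes name CASAVA 1.4, FastQC 0.11.0, TopHat2 2.0.9, featureCounts 1.5.2 and edgeR 3.16.5. Read counts per gene on mm10 were deposited as whole numbers with no scaling, and 0 columns were left without a sample. The strand setting of the counting is not given in the sources used here. A second deposited table of normalized log2 values was not used. Of the 14 libraries, 10 are headed by a number alone, and their deposited values are counts like the rest although their unit was entered as other.

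Counts were tested in R 4.3.3 with edgeR 4.0.16 (filterByExpr with a minimum count of 10 and a total of 15, TMM factors, robust quasi-likelihood test). Each comparison used only its own libraries, without covariates, and p-values were adjusted over all genes tested by Benjamini and Hochberg, with a threshold of 0.05. Depth, between 9596773 and 17594164 counts, limits the lowest levels, and amplified reads are not independent molecules. Members count as named if called in any comparison or if they have the highest level per kb in their role. Their values are given for every library, except for *Wnt2b* and *Sfrp5*, whose PN values are given as lowest, median and highest. *Fzd3* is also given for every library, for its lowest adjusted p between fast and slow PNs. The members and gene lists were chosen with earlier results of these data known, and the lymphocyte lists after the values of *Tcf7* and *Lef1* had been seen. Lengths and positions came from GENCODE M21, matched by symbol for 22750 genes and by an older symbol for 950, with 362 unmatched. Promoter windows came from RefSeq, and 16 members had none there. The fits were also run on simulated data, and no result given here rests on that. Alternatives included limma 3.58.1 and DESeq2 1.42.0, other scaling and filtering, covariates, and leaving out each library. Plots used Python 3.11.15 and matplotlib 3.10.9.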

Additional observations from a re-analysis of the deposited data

Results flagged for a closer look

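Within the groups of slow and fast PNs, 9 of 38 sets of a named member in a group had 1 library far from the others, by the gap to its nearest neighbor relative to the range of the group. For normally distributed values chance alone gives about 1 in 20, a nominal rate that was not measured in these data. The fast PN 1191 accounted for 5 of these, at 3.78 CPM of *Dkk1* (next 2.51), 1.59 CPM of *Sfrp2* (next 0.446), 150.6 CPM of *Sfrp5* (next 88.0), 55.6 CPM of *Tcf7* (next 8.48) and 29.7 CPM of *Wif1* (next 7.46). This library also had the lowest sum of sensory neuron markers, 576 CPM. The slow PN 1079 had 117.9 CPM of *Tcf7* (next 16.5), and the slow PN 1198A had 207.9 CPM of *Fzd1* (next 52.7). The fast PN 1216 had 1.82 CPM of *Rspo3* (next 0.502), and the fast PN 1214 had 7.50 CPM of *Wnt4* (next 5.41).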

How the results depend on the processing

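The number of members called between PNs and control was 12, and it was 3 (13.2% of all genes) at an adjusted p under 0.01 and 0 with muscle and fat scores as covariates, with 3 to 13 when each library was left out in turn. In slow PNs it was 3, and it was 8 with DESeq2, 6 with limma-voom and 8 in one fit over all libraries. It was 1 there with the length and GC trend removed (6.61% of all genes) and 0 at an adjusted p under 0.01 (3.46%). With the covariates it was 0 there, and with libraries left out it was 0 to 4. In fast PNs it was 14, 6 at an adjusted p under 0.01 (17.8% of all genes), 10 with the length and GC trend removed and 0 with the covariates, with 7 to 15 when libraries were left out. Between fast and slow PNs it was 0, 4 with DESeq2 and 1 without robust estimation, with 0 to 4 when libraries were left out. With the covariates the log2 fold change turned for *Fzd1* (-0.22) and *Tcf7* (2.20) in PNs, and for *Fzd8* (-0.26), *Rspo1* (0.69), *Sfrp2* (2.59) and *Wnt11* (7.29) in fast PNs. That of *Sfrp5* turned to 0.079 with limma-voom and 0.365 with the length and GC trend removed. With libraries left out in turn it ranged from -0.39 to 0.85 for *Sfrp5* and from -1.33 to 0.54 for *Tcf7*. The cause of these changes was not tested. The removal of robust estimation, the length and GC trend and the 3 PNs of the highest fat score were chosen after seeing the data. Among values of single members, 499 alternatives kept the direction and the outcome, whether called or not called. Another 121 kept the direction and lost the call, and 11 turned the direction. The values include those of *Sfrp5*, *Tcf7* and *Wnt2b* in PNs against control, which had no call to lose. No paired analysis was possible because the groups share no replicate numbers. Controls number 3, and counts under 10 per library limit *Dkk1*, *Rspo3*, *Rspo4*, *Sfrp2* and *Wnt11*.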
